A study of Mus musculus with 24 samples.

Results

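The genes described here are 8 members of the PI3K-AKT pathway, namely Pik3cd, Pik3r1, Pik3ap1, Inpp5d, Pik3ip1, Akt1, Akt2 and Mtor. They were found by gene symbol in the platform's annotation, with the probe set of highest mean taken for each gene, and make up 8 of the 19938 named genes. All 8 passed the filter on dim signals, as did 15647 genes in all, and none lay at the dim level of any array.

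Phosphoinositide 3-kinase (PI3K) phosphorylates a membrane lipid at the inner face of the cell after receptors such as the pre-B-cell receptor or cytokine receptors are engaged. The lipid recruits the kinase AKT, which holds FOXO transcription factors out of the nucleus and, through the TSC complex, releases the growth-regulating kinase mTOR. Lipid phosphatases and inhibitors of PI3K oppose the signal. In early B cells the strength of this pathway bears on survival, on proliferation and, through FOXO1, on expression of the recombinase genes.

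The series measured messenger RNA of mouse bone marrow B cells on 24 single-colour arrays, 1 per mouse. Every mouse, controls included, had been irradiated with 2 Gy, and the treatment label of every sample, leukemic ones included, gives 3 weeks of irradiation. The design text ties 3 weeks after irradiation to the preleukemic cells. The labels do not settle the sampling time of the leukemias, so the stages may also differ in time. Before leukemia, marrow cells at the pro-B and pre-B stages came from 3 wild-type (WT) mice and from 7 mice heterozygous for Pax5 (Pax5+/-), the transcription factor that commits cells to the B lineage. The leukemic groups came from tumor-bearing marrow of 4 WT and 10 Pax5+/- mice, and the sample titles call them leukemic bone marrow B cells. Strain, age, sex and the design of the Pax5 allele are not given in the labels used here. The stages thus differ in the cells taken as well as in disease. In such bulk samples fewer cells of a type and less RNA per cell cannot be told apart.

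The values were log2 signals, and a difference of 1 is a 2-fold change. The signal of Pax5 itself averaged 11.88 ± 0.36 (SD, n = 3) in preleukemic WT, 9.45 ± 2.10 (SD, n = 4) in leukemic WT, 11.43 ± 0.09 (SD, n = 7) in preleukemic Pax5+/- and 8.53 ± 1.22 (SD, n = 10) in leukemic Pax5+/- arrays. Whether its probe set covers the changed part of the gene is not known, so it does not check the genotype labels. The mean of 11 B-lineage genes ran from 10.76 to 11.26 in preleukemic arrays and from 8.35 to 10.20 in leukemic ones. Of these 11 genes 7 were lower and 0 higher in leukemia of each genotype (limma adjusted p under 0.05). Over all genes 35.1% were lower in Pax5+/- and 20.4% in WT mice. Stage differences of the 11 ran from -2.77 to 0.58 in Pax5+/- and from -3.48 to -0.33 in WT mice. Cd79a, 1 of the 11, ran from 12.83 to 13.29 in preleukemic and from 10.46 to 12.28 in leukemic arrays. The mean of 14 granulocyte genes was 10.60 in preleukemic WT array 1, against 6.35 to 7.01 in the other preleukemic arrays, and ran from 6.33 to 10.88 in leukemic arrays. Means of the monocyte, platelet and stromal lists were higher in every leukemic array than in any preleukemic array except that monocyte genes overlapped (7.12 in preleukemic WT array 1, 7.08 in the lowest leukemic array). Signals of Y-linked genes were high in each of the 3 preleukemic WT arrays, in none of 4 leukemic WT arrays, in 4 of 7 preleukemic and 5 of 10 leukemic Pax5+/- arrays. Sex and stage therefore cannot be told apart within the WT mice.

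Leukemic and preleukemic cells were compared within each genotype. In Pax5+/- mice Pik3ap1, Akt1, Pik3cd and Pik3r1 were lower in leukemia, Inpp5d was higher, and Pik3ip1, Akt2 and Mtor were not called (limma, adjusted p under 0.05). Of all genes tested 62.9% were called in that comparison, 27.8% higher and 35.1% lower, so 5 of 8 members is a share near the background. In WT mice Pik3ap1, Mtor, Akt2, Pik3cd and Akt1 were lower and no member was higher, where 39.1% of all genes were called with 18.7% higher and 20.4% lower. The median difference of the 8 genes was -0.19 in Pax5+/- and -0.44 in WT mice, beside -0.05 over all genes in each.

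The scale of the arrays decides some of these calls. With each array centred on the median of all its probe sets, 1 member was higher and 2 lower in Pax5+/- mice and 4 were lower in WT mice, and the split of all genes went from 4354 higher and 5485 lower to 5066 and 3502 in Pax5+/- and from 2924 and 3191 to 3379 and 2177 in WT mice. Repeating quantile normalization gave 4752 and 4005 in Pax5+/- mice, with the same 1 and 4 members called higher and lower. Centring on the median of the tested genes instead moved the median of all genes by -0.20 in Pax5+/- and by -0.12 in WT mice, and the splits became 2827 and 8930, and 2214 and 5741. Then 6 members were lower and none higher in Pax5+/- mice. Pik3ap1 and Akt1 were lower in both genotypes under each of these scalings.

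**Figure D1:**
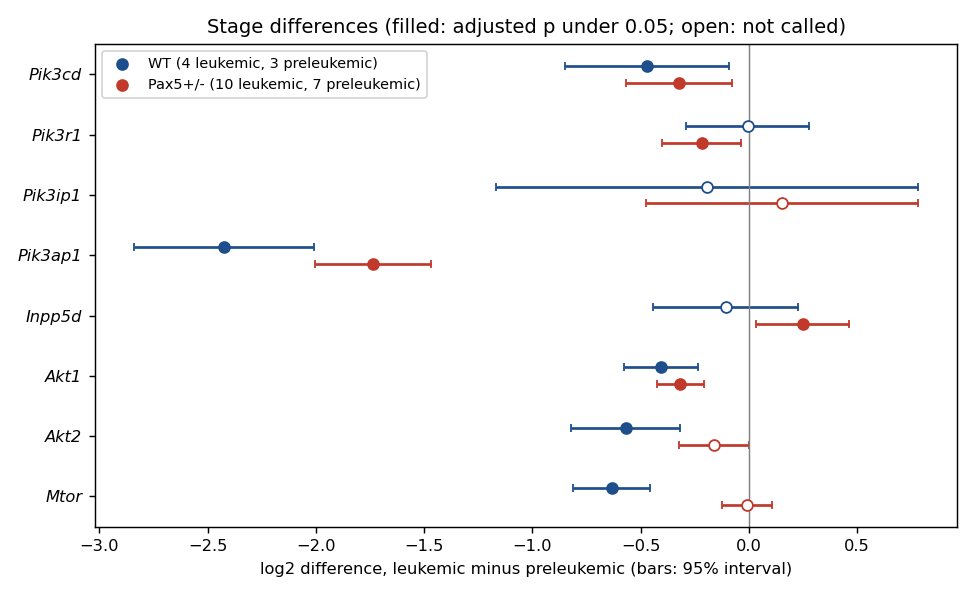
Log2 difference, leukemic minus preleukemic, of each gene in WT and Pax5+/- mice, with its 95% interval (filled points, adjusted p under 0.05). Pik3ap1 lies farthest to the left in both genotypes, at -2.42 in WT and -1.74 in Pax5+/- mice, and Mtor differs in WT mice (-0.63) while its Pax5+/- interval covers 0.

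Pik3ap1 encodes BCAP, an adaptor that links the B-cell receptor to PI3K, and it showed the largest stage difference among the 8 genes. The promoter sequences of Pik3ap1, Inpp5d and Mtor are shown. Pik3ap1 is the adaptor gene with the largest difference, and Inpp5d the phosphatase gene called higher in Pax5+/- leukemia. Mtor is the gene called in the difference of the genotypes' stage effects. The sequences are the 250 bases upstream of the annotated start on the gene's strand, from RefSeq on GRCm38.p6. Capitals mark a match to a searched motif.
Pik3ap1 (chr19:41385103-41385352, minus strand): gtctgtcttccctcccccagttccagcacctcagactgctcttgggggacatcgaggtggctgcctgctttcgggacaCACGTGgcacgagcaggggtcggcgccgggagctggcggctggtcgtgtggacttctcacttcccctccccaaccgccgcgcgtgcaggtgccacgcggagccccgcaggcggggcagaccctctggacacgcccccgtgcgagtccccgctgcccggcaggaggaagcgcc
Inpp5d (chr1:87620062-87620311, plus strand): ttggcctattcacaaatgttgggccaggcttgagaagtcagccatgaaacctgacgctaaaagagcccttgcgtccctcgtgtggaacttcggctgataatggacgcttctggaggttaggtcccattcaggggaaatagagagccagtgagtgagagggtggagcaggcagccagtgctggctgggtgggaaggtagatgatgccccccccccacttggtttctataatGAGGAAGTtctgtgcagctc
Mtor (chr4:148448332-148448581, plus strand): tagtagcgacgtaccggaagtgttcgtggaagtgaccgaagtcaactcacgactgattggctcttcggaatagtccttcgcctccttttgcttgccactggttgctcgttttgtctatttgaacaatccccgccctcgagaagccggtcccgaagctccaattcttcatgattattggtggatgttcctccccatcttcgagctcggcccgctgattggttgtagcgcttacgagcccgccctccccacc
The motifs searched on both strands were TGTTTAC (FOXO), CACGTG (an E-box bound by MYC and MAX among others), the EBF1 palindrome and GAGGAAGT (PU.1). They occurred in 3.17%, 6.02%, 0.779% and 2.44% of 32851 such windows. Pik3ap1 holds the E-box at bases -172 to -167 and Inpp5d the PU.1 word at bases -20 to -13 from the start. Of 15 windows of the 8 genes 1 more held a match, the FOXO word of an Akt1 window at -161 to -155. Mtor's window held none of these words.

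Pik3ap1 signals were 11.51, 11.79 and 11.99 in the preleukemic WT arrays and 9.64, 9.52, 9.34 and 8.87 in the leukemic WT arrays. They ran from 11.62 to 11.91 (median 11.79) in preleukemic and from 9.38 to 10.61 (median 9.97) in leukemic Pax5+/- arrays. No leukemic array of either genotype reached the preleukemic range. Groups lay apart in this direction in 20.4% of all genes in WT and in 10.5% in Pax5+/- mice, and in the other direction in 18.9% and 11.7%. Pik3ap1 fell by 2.42 ± 0.20 (SE) on the log2 scale in WT mice, a 5.37-fold decrease (limma adjusted p = 1.07e-08). It fell by 1.74 ± 0.13 (SE) in Pax5+/- mice, 3.33-fold (adjusted p = 2.7e-10). Genes with a larger difference made up 1.12% of those tested in WT and 3.11% in Pax5+/- mice. Among leukemias its mean was 0.69 ± 0.16 (SE) higher in Pax5+/- than in WT arrays, a difference that missed the threshold (limma adjusted p = 0.0675). The mean of 5 erythroid genes ran from 6.85 to 9.79 in leukemic WT and from 5.96 to 6.90 in leukemic Pax5+/- arrays, with 3 of the 5 called lower in Pax5+/- (median difference -2.63), and its part in the genotype values was not tested. With each leukemic array left out, the genotype difference of Pik3ap1 in leukemia ran from 0.53 to 0.79 (limma adjusted p = 0.0201 to 0.269). The only removal that gave a call was that of leukemic Pax5+/- array 10, the lowest of its group at 9.38 (0.76, adjusted p = 0.0201). Before leukemia the genotypes differed by 0.00 ± 0.18 (SE), with a 95% interval of -0.37 to 0.38. The fall in Pik3ap1 went with the lower B-lineage mean in the leukemic arrays, whose part in it was not tested. Across the 10 leukemic Pax5+/- arrays the correlation of Pik3ap1 with that mean was 0.09 (Spearman 0.10, a description over arrays that share a normalization).

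**Figure D2:**
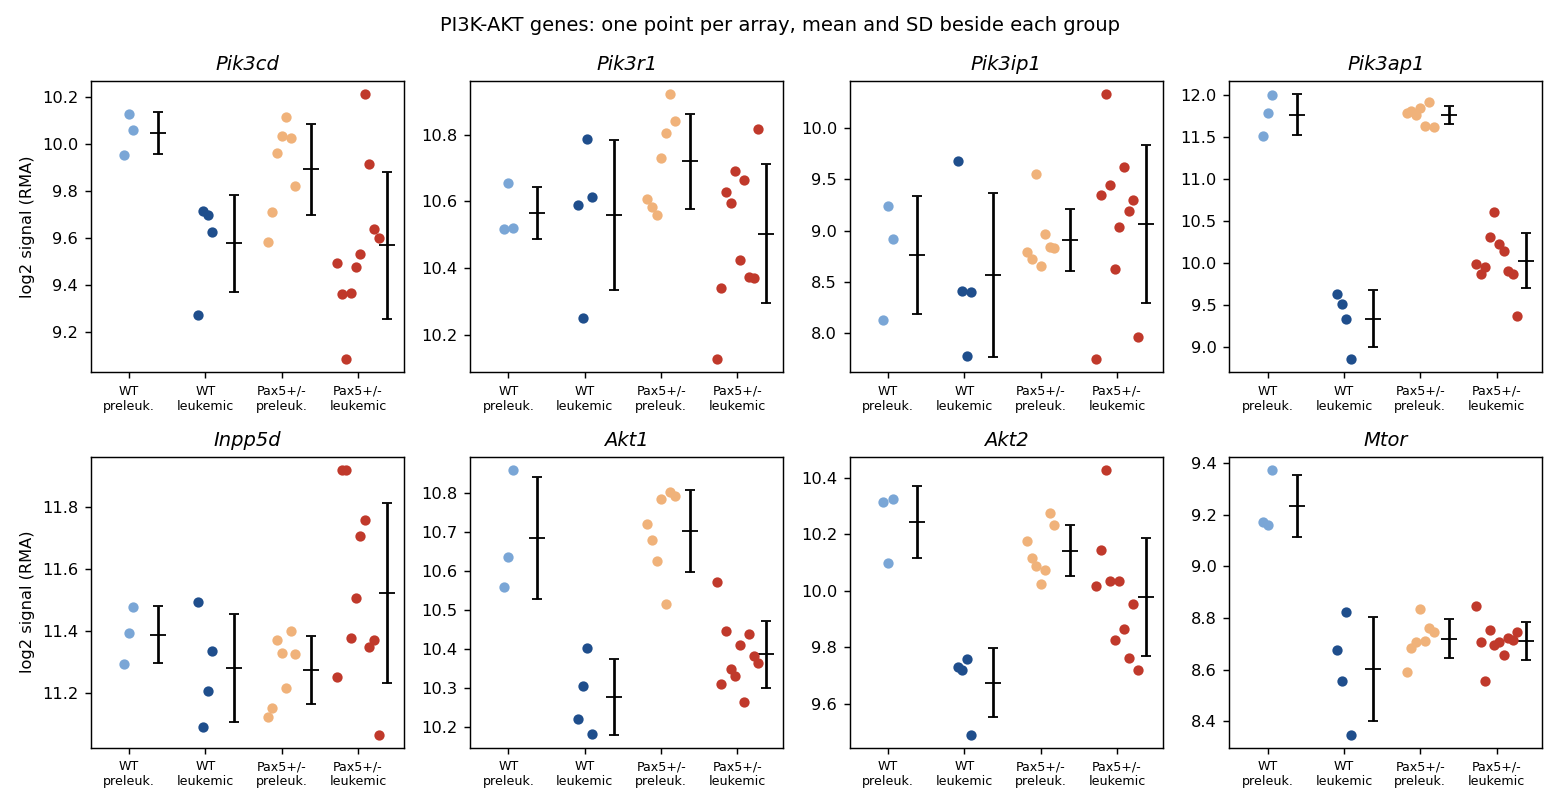
Log2 signal of each gene on every array (1 point per array), by group, with the group mean and SD beside the points. Pik3ap1 separates the stages in both genotypes, Mtor is high in the 3 preleukemic WT arrays (9.16 to 9.37) alone, and Pik3ip1 spreads over 7.75 to 10.33 in leukemic Pax5+/- arrays.

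Pik3cd and Pik3r1 encode the catalytic subunit p110 delta, the main class I catalytic subunit of lymphocytes, and the regulatory subunit p85 alpha that stabilizes it. Pik3cd was 9.95, 10.13 and 10.06 in preleukemic WT and 9.27, 9.71, 9.70 and 9.62 in leukemic WT arrays, so these groups did not overlap. In Pax5+/- mice it ran from 9.58 to 10.11 (median 9.96) before leukemia and from 9.09 to 10.21 (median 9.51) in leukemia. Leukemic Pax5+/- array 7 lay above every preleukemic array of its genotype. Pik3cd was lower by log2 differences of -0.47 ± 0.18 (SE) in WT (limma adjusted p = 0.0466) and -0.32 ± 0.12 (SE) in Pax5+/- mice (adjusted p = 0.0214). The WT call ended without leukemic array 1 (-0.37, adjusted p = 0.136), 3 (-0.51, 0.0533) or 4 (-0.48, 0.0621), without preleukemic array 1 (-0.52, 0.0518), 2 (-0.43, 0.138) or 3 (-0.46, 0.112), and with sex as a covariate (-0.35, adjusted p = 0.22). The Pax5+/- call ended without preleukemic array 5 (-0.29, limma adjusted p = 0.0519) and with arrays centred on all probe sets (-0.25, adjusted p = 0.0793).

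Pik3r1 differed little between groups. It was 10.52, 10.65 and 10.52 in preleukemic WT and 10.59, 10.25, 10.79 and 10.61 in leukemic WT arrays, and ran from 10.56 to 10.92 (median 10.73) in preleukemic and 10.13 to 10.82 (median 10.51) in leukemic Pax5+/- arrays. All 4 groups overlapped. It was lower by -0.22 ± 0.09 (SE) in leukemic Pax5+/- mice (limma adjusted p = 0.037), a smaller size than in 52.3% of genes. That call ended without any of preleukemic Pax5+/- arrays 4 to 7 (adjusted p = 0.0553 to 0.0885) or leukemic Pax5+/- arrays 1, 2, 6, 8 or 9 (0.0552 to 0.0664), with differences of -0.22 to -0.18, and under centring on all probe sets (-0.15, adjusted p = 0.157). In WT mice the difference was -0.0044 ± 0.14 (SE), with a 95% interval of -0.29 to 0.28.

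Inpp5d encodes SHIP1, the phosphatase that removes the 5-phosphate from the PI3K product in blood cells. It was 11.29, 11.39 and 11.48 in preleukemic WT and 11.49, 11.09, 11.20 and 11.33 in leukemic WT arrays. In Pax5+/- mice it ran from 11.12 to 11.40 (median 11.32) before leukemia and from 11.06 to 11.92 (median 11.44) in leukemia. Leukemic Pax5+/- arrays 2, 3, 5, 6 and 7 exceeded every preleukemic array of their genotype, and array 10 lay below all of them. The mean was 0.25 ± 0.10 (SE) higher in Pax5+/- leukemia (limma adjusted p = 0.0413) and -0.11 ± 0.16 (SE) in WT leukemia (adjusted p = 0.616). The Pax5+/- call ended without preleukemic array 1, 2, 4, 5 or 7 (adjusted p = 0.0506 to 0.0819) or leukemic array 2, 3, 5, 6 or 7 (0.0504 to 0.0749), with differences of 0.20 to 0.26. It also ended with arrays centred on the tested genes (0.05, adjusted p = 0.668).

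Pik3ip1 encodes a membrane protein that binds p110 and inhibits PI3K. It was 8.13, 9.24 and 8.92 in preleukemic WT and 9.68, 8.42, 7.78 and 8.41 in leukemic WT arrays. It ran from 8.66 to 9.55 (median 8.83) in preleukemic and from 7.75 to 10.33 (median 9.25) in leukemic Pax5+/- arrays. The leukemic values covered the whole preleukemic range in each genotype. The stage difference was 0.15 ± 0.30 (SE; 95% interval -0.48 to 0.78, limma adjusted p = 0.671) in Pax5+/- and -0.19 ± 0.47 (SE; -1.17 to 0.78, adjusted p = 0.768) in WT mice. Its SD of 0.77 among Pax5+/- leukemias was the largest of the 8 genes in that group, and arrays 1 and 10 were lowest (7.75 and 7.96).

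Akt1 and Akt2 encode serine-threonine kinases that PI3K signalling activates. Akt1 was 10.56, 10.63 and 10.86 in preleukemic WT and 10.22, 10.31, 10.40 and 10.18 in leukemic WT arrays. In Pax5+/- mice it ran from 10.51 to 10.80 (median 10.72) before leukemia and from 10.26 to 10.57 (median 10.37) in leukemia. The WT groups did not overlap, and of the leukemic Pax5+/- arrays array 1 alone (10.57) exceeded the lowest preleukemic array. Akt1 was lower by -0.41 ± 0.08 (SE; limma adjusted p = 0.00052) in WT and -0.32 ± 0.05 (SE; adjusted p = 2.72e-05) in Pax5+/- mice, 1.32-fold and 1.24-fold. These calls held without any 1 array (-0.47 to -0.32 in WT, -0.35 to -0.30 in Pax5+/- mice).

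Akt2 was 10.31, 10.10 and 10.32 in preleukemic WT and 9.73, 9.72, 9.76 and 9.49 in leukemic WT arrays, with no overlap. In Pax5+/- mice it ran from 10.02 to 10.27 (median 10.12) before leukemia and from 9.72 to 10.43 (median 9.98) in leukemia, with array 3 highest. It was lower by -0.57 ± 0.12 (SE) in WT mice, 1.48-fold (limma adjusted p = 0.000849), and differed by -0.16 ± 0.08 (SE) in Pax5+/- mice (adjusted p = 0.0742). The Pax5+/- difference was called without leukemic array 3 (-0.21, adjusted p = 0.00663) and with arrays centred on the tested genes (-0.36, adjusted p = 0.000193). The difference between the genotypes' stage effects was 0.41 ± 0.14 (SE), not called (adjusted p = 0.418). The platform names 2 probe sets Akt2. The brighter one, used here, lies in platform order between Vstm2a and Egfr, where RefSeq places the pseudogene Akt2-ps on chromosome 11, whereas Akt2 lies on chromosome 7, so which copy it measures is uncertain. The other probe set gave -0.59 (adjusted p = 0.000384) in WT and -0.09 (adjusted p = 0.316) in Pax5+/- mice, the same calls.

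Mtor encodes the kinase at the core of both mTOR complexes, which control growth and AKT phosphorylation. It was 9.17, 9.16 and 9.37 in preleukemic WT arrays, and 8.68, 8.55, 8.82 and 8.35 in leukemic WT arrays. It ran from 8.59 to 8.84 (median 8.71) in preleukemic and from 8.56 to 8.85 (median 8.71) in leukemic Pax5+/- arrays. The 3 preleukemic WT arrays thus lay above all 21 others, and the remaining 3 groups overlapped. How many genes share that pattern was not counted. Preleukemic WT arrays lay above the leukemic WT arrays in 20.4% of all genes, and above the preleukemic Pax5+/- arrays in 3.45%. Mtor was lower in WT leukemia by -0.63 ± 0.09 (SE), 1.55-fold (limma adjusted p = 6.83e-06), while in Pax5+/- mice it differed by -0.01 ± 0.06 (SE), with a 95% interval of -0.12 to 0.11. With arrays centred on the tested genes it was lower in Pax5+/- leukemia too (-0.21, adjusted p = 0.00187), and centred on all probe sets the difference was 0.06 (adjusted p = 0.378).

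The stage effects of the genotypes were compared through their difference, and Mtor was the 1 member called, where 0.185% of all genes were (0.179% higher, 0.00639% lower). Its stage difference was 0.63 ± 0.10 (SE) more positive in Pax5+/- than in WT mice (limma adjusted p = 0.00463), and 0.55 (adjusted p = 0.024) with arrays centred on the tested genes. Without preleukemic WT array 3, the highest, it was 0.56 (adjusted p = 0.0505). Y-linked signal was high in all 3 preleukemic and in 0 of 4 leukemic WT arrays. The WT part of this difference therefore cannot be told apart from sex. With Y-linked signal as a covariate, which WT arrays alone cannot separate from stage, the difference was 0.66 (limma adjusted p = 0.012). The other 7 members were not called. By limma 3 of the 8 had an unadjusted p under 0.05. The share of all genes under that threshold was not counted, so nothing is read from this number. For Pik3ap1 the difference of stage effects was 0.69 ± 0.24 (SE; limma adjusted p = 0.409).

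Between genotypes before leukemia, Mtor was again the 1 member called, where 0.786% of all genes were (0.262% higher, 0.524% lower). It was lower in Pax5+/- cells by -0.52 ± 0.08 (SE), 1.43-fold (limma adjusted p = 0.000872). Groups lay apart in this direction in 3.45% of genes and in the other in 1.94%. This comparison shares its preleukemic WT arrays with the ones above. The difference ran from -0.55 to -0.45 when each array was left out (limma adjusted p = 0.000891 to 0.0248). It was -0.55 (adjusted p = 0.00243) without preleukemic WT array 1, whose granulocyte mean stood apart. That array also had the highest erythroid (8.75), NK-cell (9.03), T-cell (6.68) and monocyte (7.12) means of the preleukemic arrays. Leaving it out therefore does not single out granulocyte RNA, whose part was not tested. The NK-cell mean was also higher in preleukemic WT (6.98 to 9.03) than in most preleukemic Pax5+/- arrays (5.85 to 7.62), and its part in the result was not tested. With Y-linked signal as a covariate the difference was -0.53 (limma adjusted p = 0.00145). Among preleukemic Pax5+/- arrays Mtor was 8.59 to 8.76 in the 4 with high and 8.71 to 8.84 in the 3 with low Y-linked signal, all below the WT arrays. Of the 16 nearest tested neighbours of Mtor on chromosome 4, 8 on each side and picked after Mtor's value was seen, none was called (differences -0.13 to 0.19, lowest adjusted p = 0.634). Pik3cd lies 20 tested genes away on the same chromosome and differed by -0.15 ± 0.17 (SE; adjusted p = 0.907). Of the 123 genes called in this comparison 7 lay on chromosome 4, which holds 982 of the 15636 tested genes with a known place. Whether neighbouring sequence has a part in the Mtor difference was not tested. In leukemic cells no member was called between genotypes, where 0.16% of all genes were (0.0511% higher, 0.109% lower). By limma 2 of the 8 (Pik3ap1 and Akt2) had an unadjusted p under 0.05, with the share of all genes under that threshold not counted. For Mtor the leukemic genotypes differed by 0.11 ± 0.07 (SE; 95% interval -0.03 to 0.25).

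**Figure D3:**
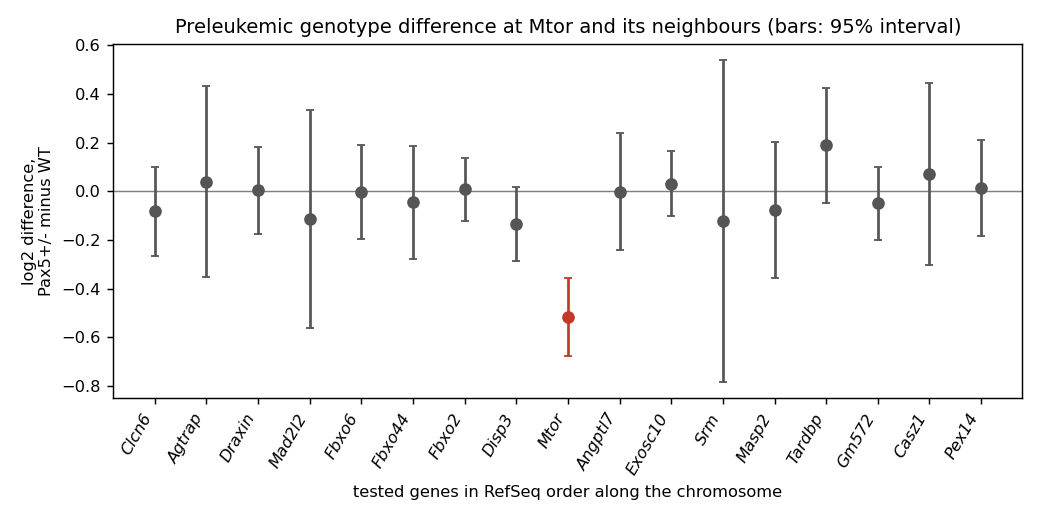
Log2 difference, Pax5+/- minus WT, in preleukemic arrays for Mtor and the 8 tested genes on either side of it in RefSeq order, with 95% intervals. Mtor lies at -0.52, and the neighbours lie between -0.13 and 0.19.

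Around these 8 genes, 73 of 78 further genes of the pathway were tested, and the other 5 were not analysed here. In Pax5+/- leukemia 11 were higher, 35 lower and 27 not called, and in WT leukemia 6 were higher, 27 lower and 40 not called. Of all genes 27.8% were called higher and 35.1% lower in Pax5+/- mice, and 18.7% and 20.4% in WT mice. Their median differences were -0.18 and -0.19, against -0.05 over all genes. Centred on all probe sets the counts were 14 higher and 29 lower, and 7 and 23; centred on the tested genes they were 9 and 44, and 6 and 36. No gene of this set was called in the genotype comparisons or in the difference of stage effects. There limma gave 3 (preleukemic), 6 (leukemic) and 5 at an unadjusted p under 0.05. The share of all genes under that threshold was not counted.

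Among 7 other PI3K subunit genes 2 were higher and 4 lower in Pax5+/- leukemia, and 1 and 4 in WT leukemia. Pik3r6, a regulatory subunit of the G-protein-coupled enzyme, was higher (log2 difference 2.44 in Pax5+/-, 1.83 in WT mice), and its catalytic partner Pik3cg was lower (-0.49 and -0.83). Pik3ca, the catalytic subunit p110 alpha, was lower (-0.79 and -1.12), whereas Pik3cb, p110 beta, was 1.21 higher in Pax5+/- and 0.55 (not called) in WT leukemia. Pik3cb signals were 6.24, 6.25 and 7.72 in the preleukemic WT arrays and ran from 6.91 to 7.69 in leukemic WT arrays. Of 7 receptors and adaptors that recruit PI3K, 4 were lower in Pax5+/- and 3 in WT leukemia. The insulin receptor substrate genes Irs1 (-2.44 and -1.75) and Irs2 (-1.43 and -1.62) and the adaptor gene Gab3 (-0.64 and -0.79) were lower in both. Cd28, a T-cell co-receptor that also stands in the T-cell list, was at least 3.37-fold higher in Pax5+/- leukemia, with 3 of 7 preleukemic arrays at the dim level. The T-cell mean ran from 5.65 to 5.75 in preleukemic and 5.67 to 7.75 in leukemic Pax5+/- arrays, and its part in this result was not tested. Of 5 other phosphatase genes 1, Inppl1 (SHIP2), was lower (-0.98 and -0.85). The other 4, Inpp4a, Inpp4b, Synj1 and Ocrl, were not called in either genotype.

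Of 5 further kinases 1 was higher and 4 lower in Pax5+/- leukemia, and 0 and 2 in WT leukemia. Sgk1, a relative of AKT, was lower (-1.60 and -1.04), and Sgk3 was 1.96 higher in Pax5+/- and 1.42 (not called) in WT leukemia. Pdpk1, the kinase that activates AKT, was lower in Pax5+/- mice (-0.28). In WT mice it averaged 9.77 in preleukemic and 9.53 in leukemic arrays (not called). Gsk3a, a kinase that AKT inhibits, was lower (-0.18 and -0.21). Of 15 brakes on AKT and mTORC1, 3 were higher and 4 lower in Pax5+/- and 2 and 4 in WT leukemia. Tbc1d7, a subunit of the TSC complex (1.16 and 0.76), and Deptor, an inhibitor that binds mTOR (0.92 and 1.20), were higher. Nprl2, a subunit of the amino-acid sensing GATOR1 complex, was lower (-0.44 and -0.62). The AKT phosphatase gene Phlpp1 was lower in WT leukemia (-0.82). Of 14 mTOR complex and activator genes, Prr5, a subunit of mTORC2 (0.95 and 1.27), and Rheb, the GTPase that activates mTORC1 (0.57 and 0.75), were higher. Rragd, a GTPase of amino-acid sensing, was lower in Pax5+/- (-0.61) and Rictor, a core subunit of mTORC2, in WT leukemia (-0.60). With arrays centred on the tested genes 2 of these 14 were higher and 8 lower in Pax5+/- mice, against 3 and 3 on the deposited scale. Centred on all probe sets 2 were higher and 0 lower in WT mice, against 2 and 2. Of 8 mTORC1 output genes, Tfeb (-1.22 and -1.35), a lysosomal transcription factor, and Rps6kb2 (-0.72 and -0.76), an S6 kinase, were lower. Ulk1, a kinase of autophagy, was lower in Pax5+/- leukemia (-0.53), and the cap-binding factor gene Eif4e was higher (0.34 and 0.62, the former not called with arrays centred on the tested genes at 0.14).

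Foxo1, the FOXO factor that drives early B-cell genes, was lower in both genotypes (-2.09 ± 0.19 (SE), limma adjusted p = 5.84e-09 in Pax5+/-, and -2.66 ± 0.29 (SE), adjusted p = 6.09e-07 in WT mice), and its groups did not overlap. Foxo4 was lower by -0.55 and -0.53. Foxo3 was lower by -0.23 in Pax5+/- mice and differed by -0.29 (not called) in WT mice. Of 9 genes known as FOXO targets in lymphocytes, 7 were lower in Pax5+/- and 6 in WT leukemia, and none was called higher, where 35.1% and 20.4% of all genes were called lower. S1pr1, the receptor for sphingosine 1-phosphate that guides lymphocyte egress, was lower by -2.60 and -2.61. The recombinase genes, which also stand in the B-lineage list, were lower: Rag1 by -2.56 and -3.48, and Rag2 at least 6.79-fold and 9.01-fold, with 1 leukemic array of each genotype at the dim level. The part of the lower B-lineage mean in these differences was not tested.

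Leaving out 1 array ended several WT calls among these genes. The share of all genes called in WT mice also fell, from 39.1% to 27.3% without preleukemic WT array 2 and to 27.2% without array 3. Without preleukemic WT array 2 the calls ended for Inppl1 (-0.77, limma adjusted p = 0.0609), Sgk1 (-0.81, 0.0748), Phlpp1 (-0.80, 0.0503), Deptor (1.16, 0.068), Rictor (-0.51, 0.145) and Gsk3a (-0.24, 0.0562). Deptor also lost its call without preleukemic WT array 3 (1.25, adjusted p = 0.0512) or leukemic WT array 2 (0.99, 0.0718), Rictor without preleukemic array 3 (-0.62, 0.0815) or leukemic array 2 (-0.48, 0.119) or 4 (-0.48, 0.112), and Gsk3a without preleukemic array 3 (-0.13, 0.28) or leukemic array 2 (-0.20, 0.0744), 3 (-0.20, 0.0774) or 4 (-0.18, 0.0947). Rag1 moved to -2.85 without leukemic WT array 2. The Foxo3 call in Pax5+/- mice ended without preleukemic array 4, 5, 6 or 7 or leukemic array 1, 5 or 10 (differences -0.22 to -0.19, limma adjusted p = 0.0549 to 0.0809). With arrays centred on all probe sets the calls of Foxo3 (-0.16, adjusted p = 0.151) and Gsk3a (-0.11, 0.0721) in Pax5+/- mice, and of Gsk3a (-0.14, 0.179) and Rictor (-0.53, 0.073) in WT mice ended as well. Under repeated quantile normalization Gsk3a (-0.18, adjusted p = 0.103) and Rictor (-0.57, 0.0518) in WT mice were not called.

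**Figure D4:**
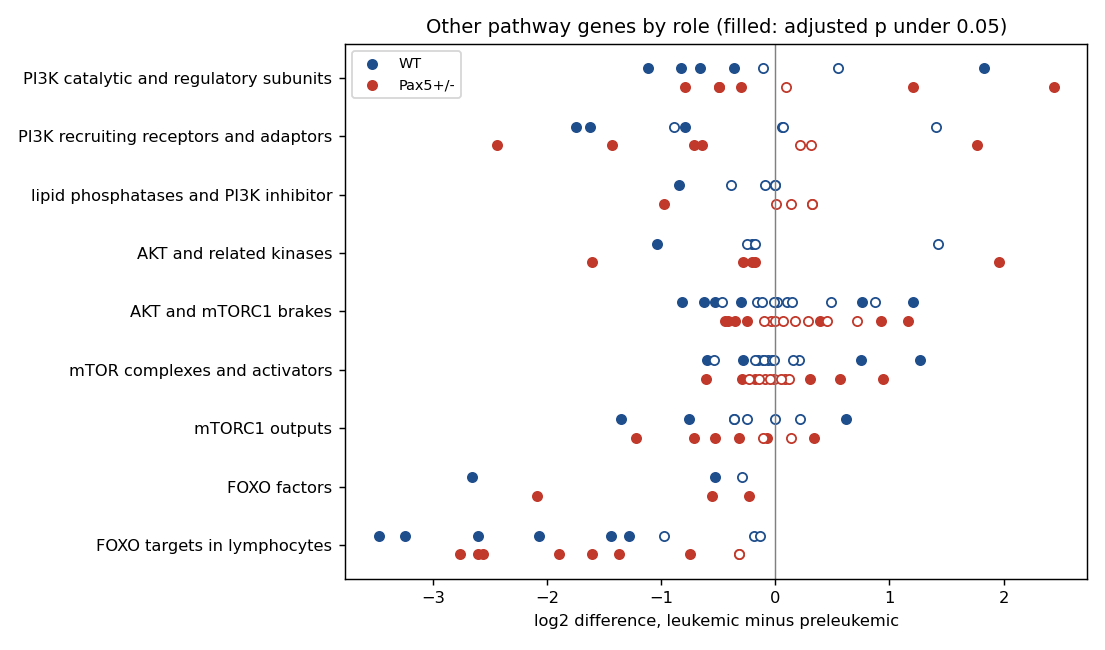
Log2 difference, leukemic minus preleukemic, of the 73 other pathway genes by role in WT and Pax5+/- mice (1 point per gene and genotype; filled, adjusted p under 0.05). FOXO factors and targets lie left of 0 in both genotypes, with Foxo1 at -2.66 in WT mice, and Pik3r6 lies farthest right at 2.44 in Pax5+/- mice.

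The genes most like each member were found from signals with the group means removed, over all 24 arrays and as a description. Pik3ip1 was closest to Tsc22d3, the glucocorticoid-induced gene GILZ (Pearson r 0.96), and Abtb1 (0.89). Inpp5d was closest to Zer1 (0.93) and Scml4 (0.91), and Pik3cd to the glycosyltransferase gene Mfng (0.86) and Fgd2 (0.86). Pik3r1 was closest to Hnrnph1 (0.81) and Ptbp2 (0.79), both splicing regulators, and Akt2 to Plxnb1 (0.79) and Ppp2r5c (0.78). For Mtor the nearest were Nup210 (0.77) and Bdp1 (0.76), for Pik3ap1 Sh2d1b1 (0.77) and Rubcnl (0.73), and for Akt1 Txndc15 (0.74) and Scaf11 (0.72). Spearman values were 0.57 for Mtor and Bdp1, 0.54 for Pik3ap1 and Sh2d1b1, and 0.68 to 0.93 for the other pairs. Without the 2 arrays farthest from the member's median, r was 0.54 for Mtor and Bdp1 and 0.52 for Pik3ap1 and Rubcnl. It was 0.62 to 0.93 for the other pairs. These values are the highest of many and the arrays share a normalization, so their size is not tested.

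Among the 10 Pax5+/- leukemias Pik3ip1 and Inpp5d varied together, while Mtor varied opposite to both. Pik3ip1 and Inpp5d correlated with r 0.74 (Spearman 0.71), Pik3ip1 and Mtor with -0.82 (-0.55), and Inpp5d and Mtor with -0.72 (-0.77). Leukemic Pax5+/- array 3 had the highest Pik3ip1 (10.33) and the lowest Mtor (8.56), and array 1 the lowest Pik3ip1 (7.75) and the highest Mtor (8.85). With the 2 arrays farthest from the Pik3ip1 median left out, r was 0.50 for Inpp5d and -0.72 for Mtor. Over all 24 arrays, with group means removed, r was 0.70 for Pik3ip1 and Inpp5d, but -0.33 for Pik3ip1 and Mtor and -0.19 for Inpp5d and Mtor. Pik3cd and Akt2 correlated with -0.71 (Spearman -0.71) in the 10 leukemias, and Inpp5d and Akt2 with 0.68 (0.70). These are descriptions over 10 arrays, chosen as the strongest of the pairs among the 8 genes, with no test. The range of Mtor among these arrays is 8.56 to 8.85. Other signals varied beside them in these arrays. Against Pik3ip1 the granulocyte mean had r -0.54 (Spearman -0.67) and the stromal mean -0.57 (-0.55). Pax5 had r 0.68 (Spearman 0.70) against Inpp5d and -0.40 (-0.71) against Mtor, and the T-cell mean had 0.61 (0.37) against Mtor. Their part was not tested.

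**Figure D5:**
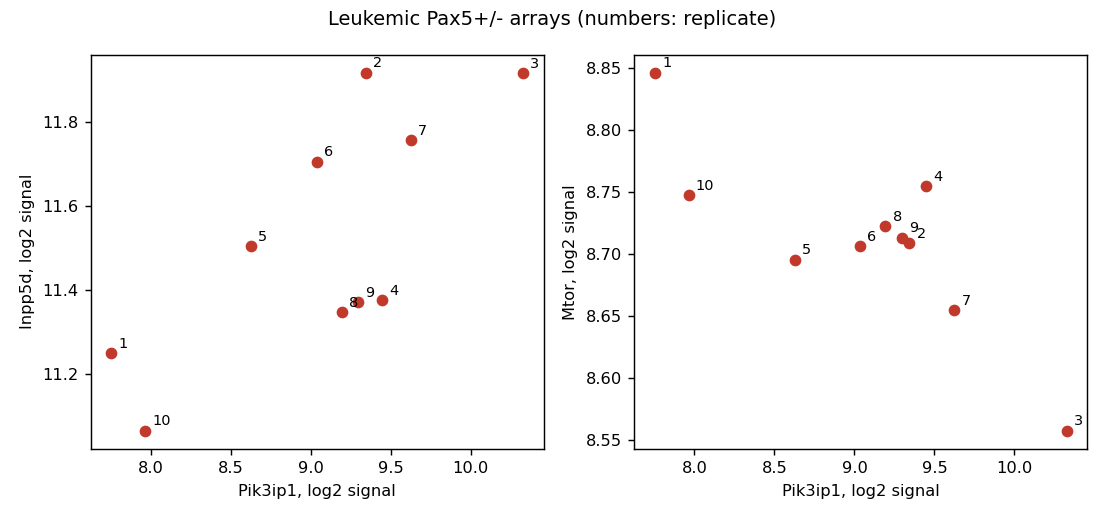
Inpp5d (left) and Mtor (right) against Pik3ip1 in the 10 leukemic Pax5+/- arrays, all as log2 signal, with the replicate number beside each point. Inpp5d tends to be higher and Mtor lower where Pik3ip1 is high, and arrays 1 and 3 stand at the ends for Pik3ip1 (7.75 and 10.33).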

How the data were processed

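Per the submitters' processing notes, the authors summarized and normalized the arrays by RMA with the R package oligo, so the table the authors deposited holds log2 values for 35556 probe sets. Software versions are not given in the labels. Array medians ran from 6.10 to 6.30. Probe sets were named from the platform's annotation where it gives 1 gene symbol (21789), and a gene took its probe set of highest mean. The dim level is the 30th percentile of an array (5.18 to 5.35), and genes reaching it on at least 3 arrays were tested. For a named gene with arrays at or under that level, the level replaced them and the fold is given as a lower bound. A model of 4 group means on all 24 arrays was fitted by limma 3.58.1 in R 4.3.3 (lmFit, contrasts.fit, eBayes; 20 residual and 2.29 prior degrees of freedom), for 5 comparisons, two-sided, with Benjamini-Hochberg adjustment over 15647 genes. Sample titles name biological replicates, and the series' design gives the numbers of mice that match them.

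All 8 genes were described in each comparison. Of the other pathway genes, up to 3 called genes with the largest difference were named per role list and stage comparison, 31 in all. The 8 genes and the lists were chosen with earlier results of these data known. Correlations used signals with group means subtracted, or the 10 leukemic Pax5+/- arrays. The scripts were tested on simulated data. Alternatives are given in the closing section. No protein sequences were used here, and the number of arrays limits the precision.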

Additional observations from a re-analysis of the deposited data

Results flagged for a closer look

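Pik3ip1 was 9.55 in preleukemic Pax5+/- array 3, apart from the other 6 arrays of its group, which ran from 8.66 to 8.97. Akt2 was 9.49 in leukemic WT array 4, apart from 9.72 to 9.76 in the other 3. Chance sets apart about 1 in 20 groups by this rule, and 2 of 24 were. The stage difference of Mtor differed between the genotypes by 0.63 on the log2 scale (limma adjusted p = 0.00463), since Mtor was lower in leukemic than in preleukemic WT arrays and differed by -0.01 in Pax5+/- arrays.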

How the results depend on the processing

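The 11 planned kinds of alternative were array weights, robust eBayes with a variance trend, fits restricted to the groups of a comparison, no or a stricter filter on dim genes, centring on all probe sets, repeated quantile normalization, the mean of all probe sets of a gene, the replicate number as a block, Y-linked signal as a covariate, and leaving out each array. The other Akt2 probe set and centring on the tested genes were added after seeing the data. Directions and calls of Pik3ap1, Akt1 and, in WT mice, Akt2 and Mtor between stages held under all of these.

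Counts of called members that changed were as follows. In Pax5+/- mice 5 members became 3 with arrays centred on all probe sets and 2 to 5 without 1 array, and centred on the tested genes 6 were called, all lower. In WT mice 5 became 4 wherever Pik3cd lost its call: with array weights, no filter, centring on all probe sets, repeated quantile normalization or the Y-linked covariate, and without any 1 array of the WT groups except leukemic array 2. For the difference of stage effects 1 became 0 to 1 without 1 array, and for the leukemic genotypes 0 became 0 to 1. With only the groups compared, 2 other pathway genes were called between preleukemic genotypes, against 0. The replicate numbers share only a label: deviations of same-numbered arrays correlated from -0.36 to 0.14. With the replicate block no member was called in the difference of stage effects (0; Mtor 0.61, limma adjusted p = 0.151) or between preleukemic genotypes (0; Mtor -0.51, adjusted p = 0.0632), and Pik3ap1 differed by -0.028 between preleukemic genotypes. The block changed no other member's call.

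The differences that turned sign were all uncalled. Centred on all probe sets, Mtor in Pax5+/- mice became 0.060, Pik3r1 in WT mice 0.065 and Pik3cd between leukemic genotypes 0.014, and centred on the tested genes Pik3ip1 in Pax5+/- mice became -0.045. Pik3ap1 between preleukemic genotypes became -0.043 under repeated quantile normalization and -0.039 with the Y-linked covariate. Without 1 array, the stage difference ran from -0.030 to 0.011 for Mtor in Pax5+/-, from -0.080 to 0.099 for Pik3r1 and from -0.56 to 0.070 for Pik3ip1 in WT mice. Between preleukemic genotypes Pik3ip1 ran from -0.17 to 0.38, Pik3ap1 from -0.13 to 0.12 and Akt1 from -0.044 to 0.11, and between leukemic genotypes Pik3cd ran from -0.11 to 0.045 and Pik3r1 from -0.16 to 0.019. Other calls lost were Pik3cd in WT mice with array weights (adjusted p = 0.0775), no filter (0.055), centring on all probe sets (0.103) or repeated quantile normalization (0.0732), and Inpp5d in Pax5+/- mice with only the groups compared (0.0594). Causes of these changes were not tested.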
